A study of Homo sapiens with 3 samples.

Results

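The LIN28 and let-7 axis was followed through 9 genes, LIN28A, LIN28B, HMGA1, HMGA2, IGF2BP1, IGF2BP2, IGF2BP3, TRIM71 and ARID3B, in 3 RNA-seq libraries of teratoma. They were taken by symbol, as the known regulators and targets of let-7 and the oncofetal RNA-binding proteins linked to it, and not by their values. All 9 were found among the 27307 genes of the deposited tables. Teratomas are growths of mixed tissue that pluripotent cells form in a host. Here the starting cells were H1, an established human embryonic stem cell line, given at 1000000 cells beneath the skin of immunodeficient SCID-beige mice, with harvest 3 to 4 weeks later. The 3 libraries form 1 group with no comparison group and are called teratomas 1, 2 and 3 by replicate number. Whether each is a separate tumour or animal is not labelled, so their spread may be technical.

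LIN28 proteins bind the precursors of let-7 microRNAs and block their maturation, and mature let-7 in turn represses LIN28 transcripts, so that each side restrains the other. LIN28 is abundant in pluripotent and early embryonic cells, and let-7 accumulates as tissues differentiate. HMGA2, the IGF2BP family, TRIM71 and ARID3B are known let-7 targets that are high in embryonic tissue and low in most adult tissue, which is why they are called oncofetal when tumours make them again. MicroRNAs pair with their targets mainly through the seed, bases 2 to 8 of the mature strand, usually at sites in the 3′ untranslated region (3′ UTR) of the messenger RNA.

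The mature let-7 strands are shown first because all share 1 seed, which defines the sites counted in the 9 genes. The 9 sequences below, from RefSeq (GRCh38.p14), come from 12 hairpin genes and are written 5′ to 3′ with the seed in capitals.
let-7a-5p: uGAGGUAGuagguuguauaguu
let-7b-5p: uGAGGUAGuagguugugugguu
let-7c-5p: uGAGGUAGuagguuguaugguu
let-7d-5p: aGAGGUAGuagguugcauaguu
let-7e-5p: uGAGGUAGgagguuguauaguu
let-7f-5p: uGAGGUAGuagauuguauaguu
let-7g-5p: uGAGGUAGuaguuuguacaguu
let-7i-5p: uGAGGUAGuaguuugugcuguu
miR-98-5p: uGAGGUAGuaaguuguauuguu
Of 2370 mature human microRNAs in the RefSeq table, 11 carry the seed GAGGUAG. The 2 not shown are miR-4458 and miR-4500. Mature microRNAs are not part of these data, since the libraries were made from polyadenylated RNA.

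Matches to the let-7 seed were most numerous in TRIM71 and HMGA2. The 3′ UTRs of GENCODE release 29 transcripts (GRCh38) were searched on the sense strand for CTACCTC, the reverse complement of the seed, called 8mer when followed by A (CTACCTCA) and 7mer-m8 otherwise, and for TACCTCA not preceded by C, called 7mer-A1. TRIM71 held 8 matches in 6015 bases, HMGA2 7 in 3003, LIN28B 5 in 4549, IGF2BP1 5 in 6206 and ARID3B 5 in 2357. IGF2BP2 held 2 in 1792 bases, and LIN28A, HMGA1 and IGF2BP3 held 1 each in 3264, 1347 and 2153. That made 35 matches, of which 13 were 8mers, 10 were 7mer-m8 and 12 were 7mer-A1.

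Per length, the 9 genes held 1.14 matches per kilobase of 3′ UTR, against 0.109 over the 13629 genes that averaged 1 RPKM or more and had a 3′ UTR to search. RPKM is reads per kilobase of transcript per 1000000 reads. HMGA2 and TRIM71 were the 2 genes of those 13629 with at least 7 matches. Among 2479 genes with a 3′ UTR at least as long as that of HMGA2, 28.7% held a match in the same number of bases and 0.0403%, which is HMGA2 itself, held as many. The same shares were 48.9% and 0.176% for TRIM71, 38.5% and 0.177% for LIN28B, 49.9% and 0.565% for IGF2BP1, and 22.8% and 0.0568% for ARID3B. They are shares of 569, 1129, 531 and 3520 genes, each counting the gene itself. The second share also counts TRIM71 for LIN28B, and HMGA2 for ARID3B. A length-matched share with at least 1 match was 30.3% for LIN28A, 20.9% for IGF2BP3, 17% for IGF2BP2 and 13% for HMGA1. The genes had been chosen as let-7 targets, so these counts describe them and are not support for the choice. A match is not a measured site of binding.

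The 7 matches of HMGA2 are printed in full, since reads of its entries with and without them are compared. Each window of 22 bases has the match in capitals and runs 5′ to 3′ on the transcript strand, with GRCh38 coordinates.
HMGA2 match 1, chr12:65963299-65963320 (+ strand), 8mer: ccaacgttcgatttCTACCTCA
HMGA2 match 2, chr12:65964384-65964405 (+ strand), 7mer-A1: gacctgaataccactTACCTCA
HMGA2 match 3, chr12:65964534-65964555 (+ strand), 7mer-m8: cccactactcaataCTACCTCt
HMGA2 match 4, chr12:65964896-65964917 (+ strand), 7mer-A1: taccctccaagtctgTACCTCA
HMGA2 match 5, chr12:65964946-65964967 (+ strand), 7mer-m8: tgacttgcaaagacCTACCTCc
HMGA2 match 6, chr12:65965799-65965820 (+ strand), 7mer-m8: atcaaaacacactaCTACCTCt
HMGA2 match 7, chr12:65965818-65965839 (+ strand), 7mer-A1: tcttaagtcccagtaTACCTCA
The first of these, the single 8mer, begins at base 21 after the stop codon. The windows of matches 6 and 7 overlap.

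One or a pair of matches is shown for each of the other 8 genes to compare the surroundings of the shared seed match.
LIN28A match 1, chr1:26427349-26427370 (+ strand), 8mer: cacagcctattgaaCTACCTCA
LIN28B match 1, chr6:105078813-105078834 (+ strand), 8mer: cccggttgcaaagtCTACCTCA
TRIM71 match 5, chr3:32895806-32895827 (+ strand), 8mer: cttttgctgagtttCTACCTCA
TRIM71 match 6, chr3:32895829-32895850 (+ strand), 8mer: ttgtggcaagtcatCTACCTCA
IGF2BP1 match 1, chr17:49051062-49051083 (+ strand), 8mer: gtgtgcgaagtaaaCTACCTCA
IGF2BP2 match 1, chr3:185644220-185644241 (- strand), 8mer: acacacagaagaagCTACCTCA
IGF2BP3 match 1, chr7:23311795-23311816 (- strand), 8mer: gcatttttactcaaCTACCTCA
HMGA1 match 1, chr6:34245830-34245851 (+ strand), 7mer-m8: cctctgttcacaaaCTACCTCt
ARID3B match 5, chr15:74598102-74598123 (+ strand), 7mer-m8: atttcaataaacctCTACCTCt
Outside the capitals the windows differ from gene to gene. The neighbouring pair shown for TRIM71 begins at bases 4009 and 4032 after the stop codon.

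**Figure D1:**
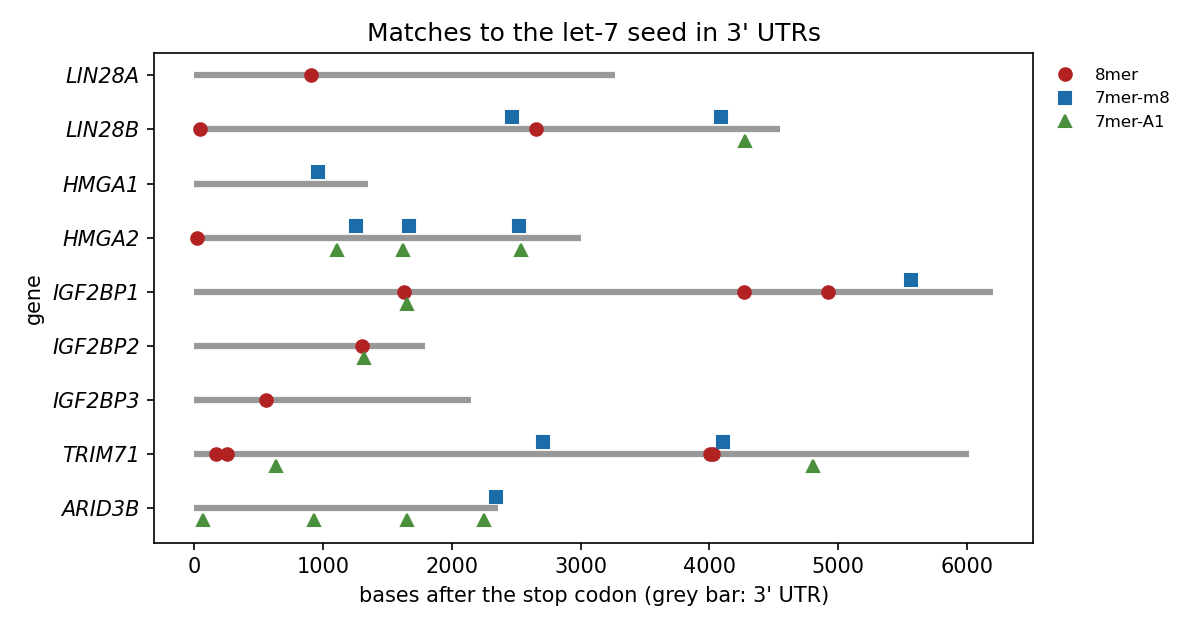
Matches to the let-7 seed along the 3′ UTR of each of the 9 genes, with the horizontal axis in bases after the stop codon, grey bars for the 3′ UTR and symbols for the 3 kinds of match (shifted up or down by kind). TRIM71 holds 8 and HMGA2 7 matches, and LIN28A, HMGA1 and IGF2BP3 hold 1 each.

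All 9 genes were detected, with detection meaning at least 1 RPKM in all 3 libraries. Of all 27307 genes 52.7% were detected. Library totals ran from 43605458 to 46243199 reads and the smallest count behind any value of the 9 genes was 383 reads, for LIN28B in teratoma 3. The order of mean RPKM (± SD over 3 libraries) was HMGA1 at 217 ± 78, HMGA2 at 43.4 ± 23.2, IGF2BP1 at 18.6 ± 6.96, LIN28A at 17.3 ± 12.4, IGF2BP2 at 15.6 ± 3.72, IGF2BP3 at 7.94 ± 1.79, ARID3B at 6.79 ± 2.81, TRIM71 at 6.16 ± 2.62 and LIN28B at 2.13 ± 0.518. By the SD over libraries, IGF2BP1, LIN28A and IGF2BP2 lay within each other's spread, and so did IGF2BP3, ARID3B and TRIM71. That SD ignores that all 9 share the same libraries. Within each of the 3 libraries IGF2BP3 stood above ARID3B and TRIM71, while the order of IGF2BP1, LIN28A and IGF2BP2 changed between libraries. HMGA1 ranked 102 among all genes by mean RPKM, and LIN28B ranked 13536.

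**Figure D2:**
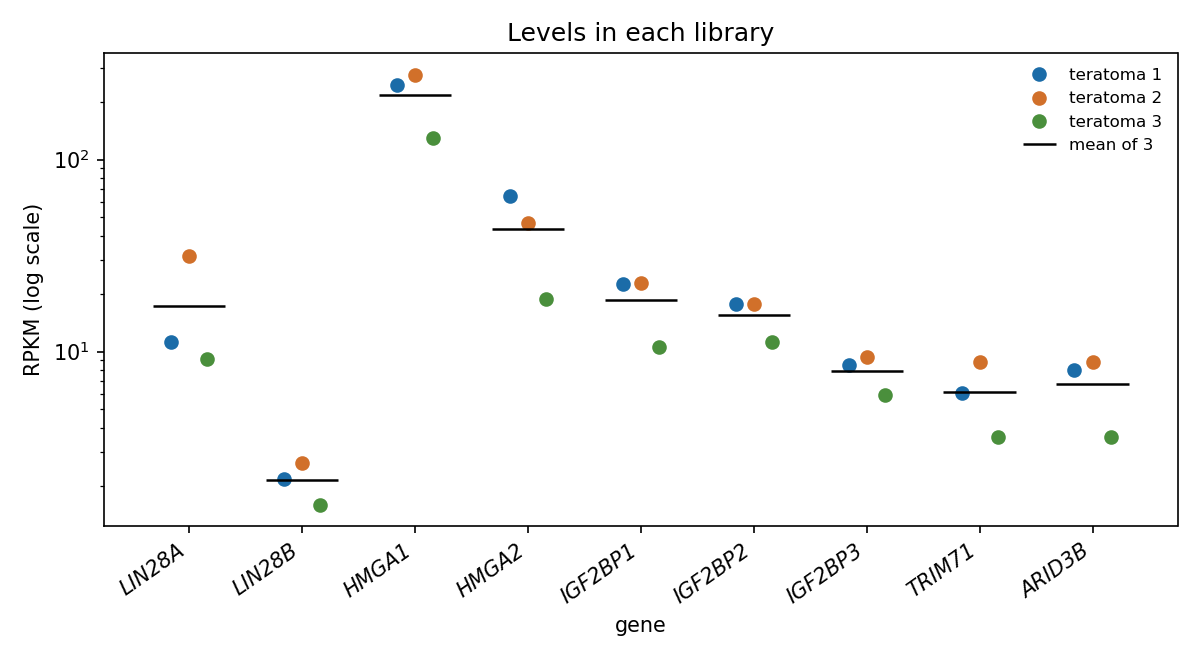
RPKM on a log axis for each of the 9 genes, with 1 point for each teratoma and a bar at the mean of 3. Teratoma 3 is the lowest point for each gene, and teratoma 2 is the highest except for HMGA2.

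LIN28A, the RNA-binding protein that blocks let-7 maturation in the cytoplasm, was highest in teratoma 2. It stood at 11.2, 31.6 and 9.14 RPKM in teratomas 1, 2 and 3, on 2084, 5830 and 1603 reads. Teratoma 2 was 2.82-fold above teratoma 1 and 3.46-fold above teratoma 3, and its 95% counting interval (exact Poisson, 30.8 to 32.4 RPKM) lay apart from both others. The share of all genes with intervals apart was not computed, here or for the genes below. Differences far beyond counting error were general, with a mean chi-square per gene of 60.7 to 332 between libraries. In bulk tissue, fewer cells of a type and less RNA per cell cannot be told apart, here or for the other genes. Without teratoma 2 the mean of LIN28A was 10.2 RPKM, against 17.3 with all 3.

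LIN28B, the paralog that also blocks let-7 maturation, was the lowest of the 9. It stood at 2.17, 2.63 and 1.6 RPKM, on 553, 663 and 383 reads. The order of the libraries was that of LIN28A, but the highest library was only 1.65-fold above the lowest. An antisense gene, LIN28B-AS1, was at 0.15, 0.721 and 0.518 RPKM on 4, 19 and 13 reads. The strand setting of the counting is not given in the sources used here, so reads of the pair cannot be told apart where they overlap.

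LIN28A exceeded LIN28B within each library, by 5.16-, 12- and 5.73-fold in teratomas 1, 2 and 3. The mean difference in log2(RPKM + 1) was 2.36 ± 0.70 (SD, n = 3; higher in 3 of 3; exact two-sided sign-flip permutation p = 0.25). This is the smallest p that 3 libraries allow, and the Benjamini-Hochberg adjusted value over the 5 paralog pairs compared was 0.312, so the design cannot pass a threshold. RPKM is scaled by length, but levels of different genes still depend on the entry kept and on reads shared with similar sequences.

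HMGA1 and HMGA2, the small AT-hook proteins that bind the minor groove of AT-rich DNA and shape chromatin, were the most abundant of the 9. HMGA1 stood at 245, 277 and 129 RPKM on 20886, 23451 and 10366 reads. Teratomas 1 and 2 lay within 1.13-fold of each other and teratoma 3 was well below both. HMGA2 stood at 64.9, 46.6 and 18.8 RPKM on 12417, 8843 and 3385 reads. It was the single gene of the 9 with its highest value in teratoma 1, which was 3.46-fold above teratoma 3.

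HMGA1 exceeded HMGA2 by 3.77-, 5.95- and 6.87-fold. The mean difference was 2.39 ± 0.43 in log2(RPKM + 1) (higher in 3 of 3 libraries, exact permutation p = 0.25, adjusted 0.312). HMGA1 has processed pseudogene copies elsewhere in the genome, so part of its reads could be shared with them. The 12 HMGA1 entries ran from 193 to 217 RPKM in mean, so the choice of entry moved its level little. The 5 HMGA2 entries ran more widely, from 23.5 to 43.4 RPKM in mean.

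Most reads of the long HMGA2 entry, which carries the let-7 matches, were not counted for its short entries. HMGA2 is listed as 5 RefSeq entries. One of 4140 bases (NM_003483) ends in the long 3′ UTR, and the other 4, of 1269 to 1993 bases, do not. The GENCODE 3′ UTRs linked to those 4, of 106 to 909 bases, held 0 let-7 matches, against 7 in the long one. The transcript linked to the entry of 1269 bases has only 611, so part of that entry may not have been searched. The long entry had 12417, 8843 and 3385 reads in teratomas 1, 2 and 3, whereas the short entries had 3203 to 3215, 2292 to 2300 and 903 to 909. The 4 short entries thus differed by at most 12, 8 and 6 reads although their lengths differed by up to 724 bases.

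Taking the reads of the fullest short entry from those of the long one left 9202, 6543 and 2476 reads, or 74.1%, 74% and 73.1% of the long entry. That share was nearly the same in all 3 libraries although the level differed 3.46-fold. The long 3′ UTR has 3003 bases in GENCODE, beside 4140 for the whole long entry, so most of the length lies there too. Isoform use was not tested. Reads of exons that entries share are counted for each of them, so the values of the short entries cannot be read as the level of those isoforms.

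**Figure D3:**
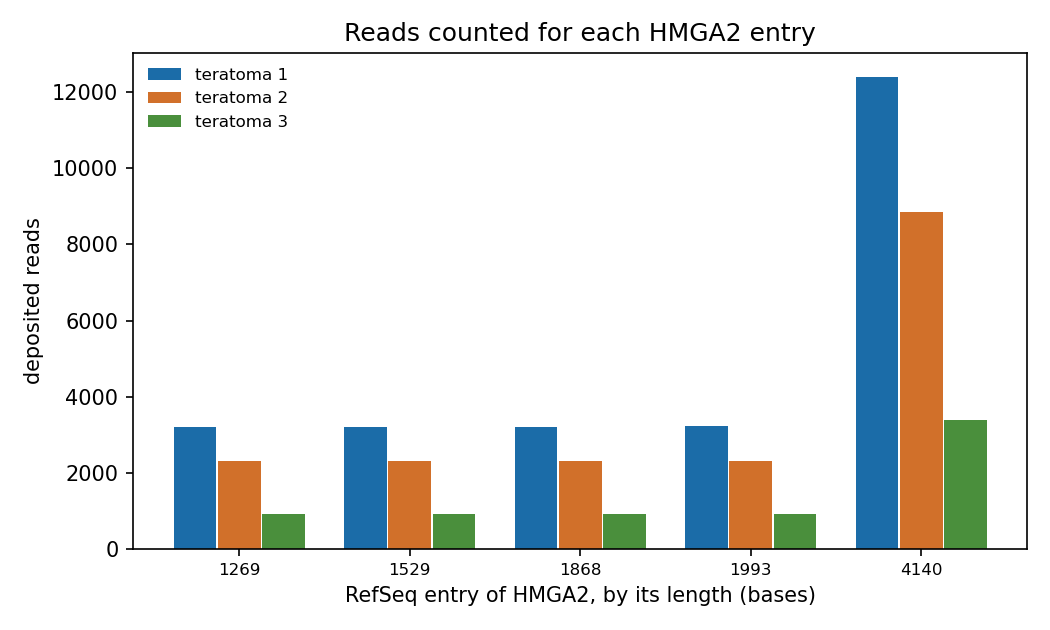
Deposited reads (vertical axis, from 0) counted for each of the 5 RefSeq entries of HMGA2, ordered by length in bases, with 1 bar for each teratoma. The 4 short entries have nearly equal reads within a library, and the entry of 4140 bases has 12417, 8843 and 3385.

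The IGF2BP family, RNA-binding proteins that stabilise and transport transcripts such as IGF2 and ACTB, was present in all 3 members. IGF2BP1 stood at 22.5, 22.8 and 10.6 RPKM on 8692, 8718 and 3859 reads. IGF2BP2, the member that persists longest in adult tissue, stood at 17.7, 17.8 and 11.3 RPKM on 3283, 3267 and 1975 reads. IGF2BP3, often used as an oncofetal tumour marker, stood at 8.48, 9.39 and 5.94 RPKM on 1631, 1790 and 1078 reads. For IGF2BP1 and IGF2BP2 the counting intervals of teratomas 1 and 2 overlapped, and for each of the 3 genes teratoma 3 lay apart below both (share over all genes not computed).

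The summed level of the family was 48.7, 49.9 and 27.8 RPKM in teratomas 1, 2 and 3. IGF2BP1 made 46.3%, 45.6% and 38.1% of that sum, IGF2BP2 36.3%, 35.6% and 40.5%, and IGF2BP3 17.4%, 18.8% and 21.4%. IGF2BP1 was thus the leading member in teratomas 1 and 2 and stood just under IGF2BP2 in teratoma 3.

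IGF2BP1 minus IGF2BP2 was 0.20 ± 0.24 in log2(RPKM + 1) (higher in 2 of 3 libraries, exact permutation p = 0.5, adjusted 0.5), which is within the spread. Its sign turned to -1.70 when the entries of a gene were summed, a setting that counts shared exons once for each of 8 IGF2BP2 and 2 IGF2BP1 entries. IGF2BP1 exceeded IGF2BP3 by 1.08 ± 0.30 and IGF2BP2 exceeded IGF2BP3 by 0.88 ± 0.08, each in 3 of 3 libraries (exact permutation p = 0.25, adjusted 0.312). IGF2BP2-AS1, listed antisense to IGF2BP2, had 1, 0 and 0 reads.

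Both IGF2BP1 and IGF2BP2 have entries that differ by an internal stretch of coding length. The longer IGF2BP1 entry has 417 bases (139 codons) more than the shorter and 388, 399 and 173 more reads, which is 20.1, 20.9 and 9.51 RPKM over the stretch. The level over the shorter entry was 22.5, 22.8 and 10.6, so the stretch stood at 0.894, 0.917 and 0.898 of it. The longer IGF2BP2 entry has 129 bases (43 codons) more and 129, 153 and 83 more reads, or 21.6, 25.9 and 14.8 RPKM against 17.1, 17.1 and 10.9 over the shorter entry. The IGF2BP2 stretch thus stood at 1.27, 1.52 and 1.35 of the shorter entry. These values take the read difference between 2 entries as the reads of the extra stretch, and reads across its edges make that approximate.

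TRIM71, the mammalian LIN-41, is a ubiquitin ligase and RNA-binding protein that holds back differentiation and is a classical let-7 target. It stood at 6.05, 8.84 and 3.6 RPKM on 2428, 3517 and 1364 reads. The 3 counting intervals lay apart (share over all genes not computed), and teratoma 2 was 1.46-fold above teratoma 1 and 2.45-fold above teratoma 3. ARID3B, an AT-rich DNA-binding factor of embryonic mesenchyme and neural crest, stood at 7.99, 8.8 and 3.58 RPKM on 1579, 1722 and 667 reads. Its intervals in teratomas 1 and 2 overlapped, and teratoma 2 was 2.46-fold above teratoma 3.

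All 9 genes were lowest in teratoma 3. Among the 15701 genes that averaged 1 RPKM or more, 48.1% were lowest there, 31.1% in teratoma 1 and 20.8% in teratoma 2. Each stayed lowest in teratoma 3 with 2 other scalings. HMGA1, HMGA2, IGF2BP1, IGF2BP2 and ARID3B also did with 3 other ways to join entries. LIN28A, LIN28B, IGF2BP3 and TRIM71 have 1 entry each, so joining entries cannot change their values. Another pseudocount, or leaving out teratoma 1 or teratoma 2, cannot change which library is lowest. In teratoma 2, 8 of the 9 were highest, against 20.3% of those genes, and 15.7% of them were highest in teratoma 2 and lowest in teratoma 3. In teratoma 1, 1 of the 9 (HMGA2) was highest, against 39.8%, and in teratoma 3 it was 0 of 9, against 39.9%. The difference of teratoma 3 from the mean of teratomas 1 and 2 in log2(RPKM + 1) had a median of -0.98 over the 9 genes and -0.05 over the 15701. It ran from -1.50 for HMGA2 to -0.39 for LIN28B.

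A gene was called varying when its highest library exceeded its lowest by 1 or more in log2(RPKM + 1), and 6 of the 9 did. The share among the 15701 genes was 20%, and 11.8% varied with their lowest value in teratoma 3. The ranges were 1.74 for HMGA2, 1.69 for LIN28A, 1.10 for each of HMGA1, TRIM71 and ARID3B, and 1.04 for IGF2BP1. IGF2BP2, IGF2BP3 and LIN28B did not reach it, at 0.61, 0.58 and 0.48. With median-of-ratios scaling 5 varied, as IGF2BP1 no longer reached 1. The count rested on teratomas 2 and 3: 1 gene, LIN28A, varied without teratoma 3, and 2 varied without teratoma 2. The 1 group allows no test of these counts.

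**Figure D4:**
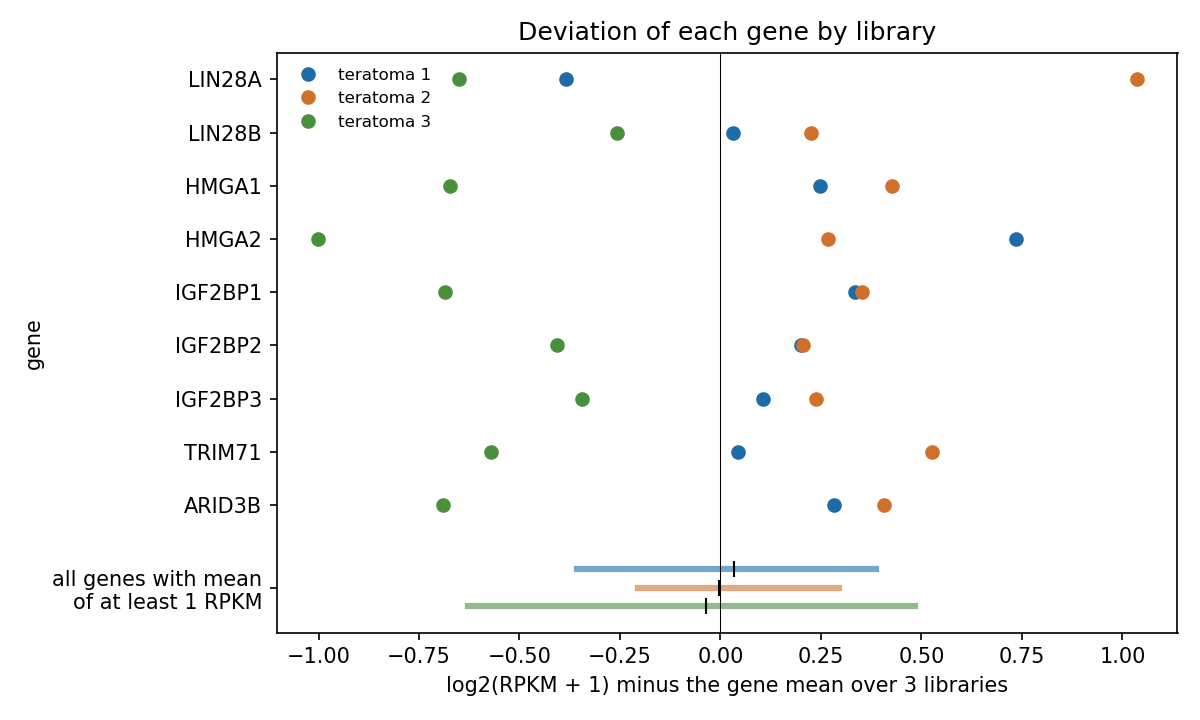
Deviation of log2(RPKM + 1) from the gene's mean over 3 libraries (horizontal axis) for each of the 9 genes, with 1 point for each teratoma, above bars for the range of most other genes (percentiles 10 to 90, with ticks at the median) among those that averaged 1 RPKM or more. LIN28A in teratoma 2 lies farthest right, at 1.04, and HMGA2 in teratoma 3 farthest left.

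LIN28A and HMGA2 had the profiles over the 3 libraries that lay farthest from those of the other 7. The nearest of the 9 to LIN28A was TRIM71, at a distance of 0.67, and the nearest to HMGA2 was IGF2BP1, at 0.518. HMGA1 and ARID3B were the nearest pair, at 0.0445, and IGF2BP1 lay 0.0757 from ARID3B. LIN28A and HMGA2 were the farthest pair, at 1.40. LIN28A and LIN28B were 0.991 apart. Distances are Euclidean, over the 3 deviations of log2(RPKM + 1) from the gene's mean. Of 13387 other genes with a protein-coding entry, 4 lay within 0.1 of LIN28A, the nearest being MTTP (3.62, 11.1 and 2.9 RPKM), the lipid transfer protein of lipoprotein assembly, and SLC2A3 (41.1, 112 and 32.2 RPKM), a glucose transporter. For HMGA2 33 lay as near, led by LRIG3 (14.1, 9.8 and 3.47 RPKM) and SERPINB6 (41.1, 30.6 and 11.9 RPKM).

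The counts for the other 7 genes ran from 30 to 323. TRIM71 had 30 genes within 0.1, led by ADRA2C and PAPLN, HMGA1 had 88, led by HSD17B11 and METTL7A, and ARID3B had 91, led by CDK2 and MYADM. IGF2BP1 had 137, led by GATSL3 and PLCB3, LIN28B had 215, led by FAIM and RDH5, and IGF2BP2 had 323, led by FAM20A and NOP14. IGF2BP3 had 218, led by FAM89A and a gene listed under the date-like symbol 10-Sep. With 3 libraries, such likeness is a description of 3 values.

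Hardly any reads fell on the let-7 hairpins. Of the 12 let-7 hairpin entries, 8 had 0 reads in all 3 libraries and none had more than 6 reads in a library. At a length of 80 bases, 3 reads would give 0.811 to 0.86 RPKM, so such short entries are poorly measured in libraries of polyadenylated RNA. Of the 5 longer host transcripts 4 were detected, and those 4 were highest in teratoma 3, as were 39.9% of the 15701 genes. WDR82, whose introns hold let-7g, stood at 53.7, 56.4 and 82.6 RPKM, MIR100HG, which hosts let-7a-2, at 17.2, 14.8 and 28, and HUWE1, which hosts let-7f-2 and miR-98, at 17.7, 18.1 and 20.3. MIR99AHG, which hosts let-7c and was chosen after its values were seen, stood at 3, 3.2 and 4.28. None of the 5 varied by the range of 1, beside 20% of the 15701 genes. The level of a host transcript does not give the level of the mature microRNA.

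The machinery of microRNA maturation was present in each library. All 13 processing and Argonaute genes were detected and 0 varied, beside 52.7% of all 27307 genes detected and 20% of the 15701 genes varying. PRKRA, a partner of the Dicer enzyme, led the list at 18.9, 19.1 and 24.9 RPKM, followed by TARBP2, another Dicer partner, at 19.2, 17 and 11.9, and DGCR8, of the nuclear Microprocessor, at 14.5, 13.7 and 12.8. The widest ranges were those of AGO4, an Argonaute (5.66, 7.27 and 9.9), and TNRC6C, a silencing scaffold (5.61, 6.74 and 9.46), both highest in teratoma 3. The median difference of teratoma 3 from the mean of the others was 0.13.

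Of the LIN28 partners and let-7 turnover factors, 8 of 8 were detected and 0 varied, beside the same 52.7% detected and 20% varying. HNRNPA1 and KHSRP, RNA-binding proteins that act on let-7 precursors, stood at 173, 156 and 115 RPKM and at 60.7, 57.6 and 45. MSI1, a neural RNA-binding protein that can recruit LIN28, stood at 41.2, 42.5 and 46.2. Described here for their roles rather than by the naming rule, the uridylyl transferases TUT4 and TUT7, which LIN28A recruits to let-7 precursors, stood at 9.67, 8.74 and 9.04 and at 2.88, 3.23 and 3.14. DIS3L2, the nuclease that degrades the tailed precursors, stood at 6.27, 5.82 and 6.16. TUT4, TUT7 and DIS3L2 thus stayed within 1.12-fold while LIN28A itself differed 3.46-fold. The other genes of the 8 differed more, up to 1.51-fold for HNRNPA1.

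The other let-7 targets were all detected, 20 of 20, beside 52.7% of all 27307 genes. Of these, 14 were lowest in teratoma 3, beside 48.1% of the 15701 genes, and 2 varied, beside 20% of them. The median difference of teratoma 3 from the others was -0.25. ARID3A, the paralog of ARID3B, stood at 23, 24.2 and 6.01 RPKM and NR6A1, an embryonic orphan nuclear receptor, at 3.05, 5.32 and 1.75. CCND1, the G1 cyclin, stood at 106, 101 and 52.5, CDC34, a ubiquitin-conjugating enzyme, at 65, 58.9 and 51.3, and MYCN, a growth-promoting transcription factor, at 26.5, 28.2 and 22.1. Of these 20, 18 held at least 1 let-7 match in the 3′ UTR, whereas 84.2% of the 13629 genes searched held none. The 20 were listed as let-7 targets and this share is not matched for length, so the count only describes the list.

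The values of other genes in teratoma 3 can be set beside their number of let-7 matches. Among the 13629 genes searched, 11480 had none, and their median difference of teratoma 3 from the others was -0.08, with 50% lowest in teratoma 3. The 383 genes with at least 2 matches had a median of 0.02, with 42.3% lowest there. Their 3′ UTRs were longer, with a median of 4903 against 913 bases. No test was made of this contrast.

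Known partners downstream of the RNA-binding proteins were mixed. Of 8 transcripts bound by IGF2BP proteins 2 varied, beside 20% of the 15701 genes. These were IGF2 at 1062, 1044 and 180 RPKM and the imprinted RNA H19 at 1121, 825 and 197. ACTB, the classical cargo of IGF2BP1, stood at 1312, 1291 and 1330. Of 6 TRIM71 targets 5 were lowest in teratoma 3 (48.1% over the 15701 genes) and 1 varied (20% over those genes), the immediate early factor EGR1 at 23, 11.8 and 7.13. The cell cycle inhibitor CDKN1A stood at 8.92, 10.3 and 8.3, the pocket protein RBL2 at 8.81, 9.12 and 9.48, and MBNL1, a splicing regulator, at 7.55, 6.96 and 4.27.

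Most other oncofetal genes were also lowest in teratoma 3. Of 10, 8 were detected, 8 varied, and 9 were lowest in teratoma 3. Beside these stand 52.7% of all 27307 genes detected, and 20% varying and 48.1% lowest there over the 15701 genes. IGF2 and H19 are counted here and also among the transcripts bound by IGF2BP proteins. AFP, the fetal plasma protein, stood at 452, 1889 and 159 RPKM, and DLK1, an imprinted growth regulator, at 1075, 318 and 72.3. The median difference of teratoma 3 from the others was -1.69, against -0.98 for the 9 genes. PEG10, an imprinted gene derived from a retrotransposon, was the exception to the direction, at 74.7, 92.2 and 244 RPKM; it was chosen after its values were seen.

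Markers of several cell types moved with these values, and their part in the result was not tested. The 8 liver and yolk sac genes, all detected (52.7% of all 27307 genes were), summed to 1011, 3945 and 349 RPKM. Of these, 8 of 8 were highest in teratoma 2 and lowest in teratoma 3, the order of LIN28A, beside 15.7% of the 15701 genes. Of the 8 pluripotency genes other than LIN28A, 6 were detected, beside the same 52.7%. NANOG and UTF1 were not, and are named after their values were seen. NANOG averaged 0.508 RPKM and so is not among the 15701 genes. The 8 summed to 17.1, 38.4 and 21.8 RPKM, with 8 of 8 highest in teratoma 2, 5 lowest in teratoma 1 and 3 in teratoma 3. Over the 15701 genes those shares were 20.3%, 31.1% and 48.1%. POU5F1, the core pluripotency factor, stood at 1.86, 11.1 and 5.93 RPKM, though it has near-identical pseudogene copies, and DNMT3B, the embryonic DNA methyltransferase, at 6.29, 9.4 and 6.63. Of 6 germ cell genes 3 were under 1 RPKM throughout, and the list summed to 8.2, 11.4 and 6.67 RPKM. PRDM1 stood at 3.66, 5.19 and 1.41 RPKM, TFAP2C at 2.75, 3.94 and 1.97, and NANOS3 at 1.71, 1.89 and 3.11, and these 3 were detected. The other 3, DDX4, DAZL and DPPA3, had at most 16 reads in a library and were named after their values were seen. No gene of these 3 lists was at 0 reads in all 3 libraries.

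The 8 mesenchyme genes summed to 1909, 1569 and 423 RPKM, with 6 of 8 highest in teratoma 1 and 8 of 8 lowest in teratoma 3, the order of HMGA2. The 8 proliferation genes summed to 289.7, 242 and 149 RPKM and were all highest in teratoma 1 and lowest in teratoma 3. Over the 15701 genes, 39.8% were highest in teratoma 1 and 48.1% lowest in teratoma 3. In the opposite direction, the 8 neuron genes summed to 731, 916 and 2442 RPKM and the 8 neural progenitor genes to 328, 327 and 480. All 16 were highest in teratoma 3, beside 39.9% of the 15701 genes. Removal of reads from the host mouse is not given in the sources used here, so mouse reads that align to the human genome may be part of the values.

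**Figure D5:**
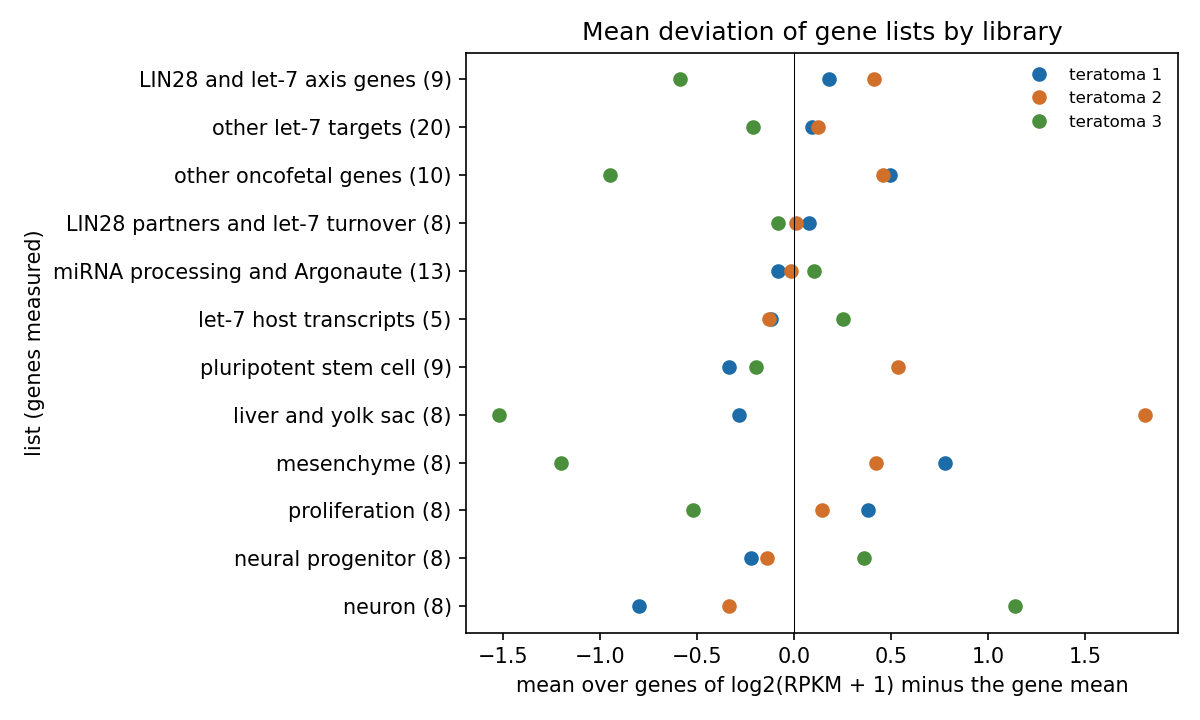
Mean over the genes of a list of the deviation of log2(RPKM + 1) from the gene's mean (horizontal axis), with 1 point for each teratoma and the number of genes measured in brackets. The 9 LIN28 and let-7 axis genes lie at 0.18, 0.41 and -0.59 in teratomas 1, 2 and 3. To the right in teratoma 3 lie the lists of neurons (1.14), neural progenitors (0.36), let-7 host transcripts (0.25) and microRNA processing and Argonaute genes (0.10).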

How the data were processed

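Polyadenylated RNA of 3 teratoma libraries was sequenced after preparation with a NEBNext Ultra II kit, per the labels' protocols. Bowtie2 and hg19 come from the submitters' processing notes, while versions, the counting tool, filters and strand were not given in the sources used here. The deposited tables list, per RefSeq entry, raw read counts, RPKM values, a length and a whole number, perhaps of genome placements, that no header explains. The RPKM deposited by the authors equal count per length per library total (46243199, 45815401 and 43605458 reads, taken from the values).

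For each symbol the entry with the highest mean RPKM was kept, leaving 27307 genes. With 1 group, no model of group differences was fitted. Differences are in log2(RPKM + 1), a scale that understates those of low genes. Paralogs were compared by exact two-sided sign-flip permutation over 3 libraries with Benjamini-Hochberg adjustment over 5 pairs. Intervals (95%, exact Poisson) and the floor of 3 reads cover counting error only. Libraries were not copies: the mean chi-square per gene between pairs was 60.7 to 332, against about 1 for sampling noise.

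The genes, the lists (136 genes measured of 137 listed, in 16 lists) and the tests were chosen with earlier results of these data known. Named are the 9 genes, of each list the 3 with the highest mean and the 2 with the largest range, and for each of the 9 the 2 genes nearest in profile. For most cell type markers only sums are printed, and genes outside the rule are marked in the text as chosen for their role or after their values were seen. For each gene the 3′ UTR came from the GENCODE release 29 transcript linked to the kept entry and of at least 80% of its length, or otherwise from another transcript of the gene, preferring RefSeq-linked ones and then the longest 3′ UTR. Of the 9, 7 used the linked transcript. Alternatives covered detection level, pseudocount, filter, entry choice, scaling, range and each library left out. Python 3.11.15, numpy 2.4.6, pandas 2.3.3, scipy 1.17.1 and matplotlib 3.10.9 were used. The range calls were tried on simulated counts that held counting error only. These libraries differ by far more than that, so the simulation does not show how the calls behave here.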

Additional observations from a re-analysis of the deposited data

How the results depend on the processing

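The count of detected genes stayed at 9 in each alternative except detection at 5 RPKM, where it was 6. Detection at 0.5 RPKM, summed entries, a library left out and rescaling to 1000000 per library could not have lowered it. The count of varying genes, 6 as reported, was 8 with a range of at least 0.5, 0 with a range of at least 2, 5 with median-of-ratios scaling (without IGF2BP1), and 1 to 6 with 1 library left out; the cause was not tested beyond the smaller range and the fewer libraries. The share of all genes varying was 46.2% and 2.65% with ranges of at least 0.5 and 2, and 12.1% with no filter on low values. IGF2BP1 minus IGF2BP2 reversed to -1.70 with the entries of a gene summed, where exons shared by entries count repeatedly. The other 4 paralog differences kept their sign in each alternative. Their lowest values were 1.95 for LIN28A minus LIN28B, 2.22 for HMGA1 minus HMGA2, 0.967 for IGF2BP1 minus IGF2BP3 and 0.821 for IGF2BP2 minus IGF2BP3. Each was positive in 3 of 3 libraries, so another pseudocount, another scaling or a library left out could not change its sign. LIN28A and LIN28B have 1 entry each, so entry choice could not change theirs either. Rescaling to 1000000 per library raised the median gene by 1.62, 1.67 and 1.72 on the log2 scale in teratomas 1, 2 and 3. No paired analysis was possible because the 3 libraries form 1 group and leave no groups to pair, apart from the comparison of paralogs within each library. That 9 of 9 were lowest in teratoma 3 was followed under alternatives chosen after seeing the data.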
